A study of Mus musculus with 8 samples.

Results

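Radial glia are the dividing stem cells that line the ventricles of the developing brain, and the Notch pathway is the cell contact signal that keeps them from turning into neurons. A set of genes of these cells and of this pathway was followed: Sox2, Pax6, Nes, Vim, Fabp7 and Hopx, which mark radial glia, and Hes1, Hes5, Notch1 and Dll1, which act in Notch signaling. They were chosen by name, as the identifiers in the count table of the C57BL/6J alignment that carry these symbols, and make up 10 of the 49585 identifiers in that table. Of these, 9 were among the 23113 genes that passed the filter on low counts and were tested, and Sox2 was not.

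RNA-seq had been performed on homogenized whole brains of 8 newborn female mice on postnatal day 1, all B × C hybrids with a C57BL/6J mother and a CAST/EiJ father. Mothers drank water with 0 ppm CdCl2 (n = 4 pups) or 50 ppm CdCl2 (n = 4 pups) before and throughout gestation. Each pup came from a different litter by the methods of the study. No second Cd dose, male pup or reciprocal cross was analysed here. The comparison asked whether maternal Cd exposure went with different mRNA levels of the genes that maintain neural progenitors.

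In the embryonic and newborn brain, radial glia span the tissue from the ventricle to the surface, divide to give neurons and intermediate progenitors, and around birth turn to making astrocytes, ependymal cells and adult neural stem cells. When a ligand such as Dll1 on one cell binds a receptor such as Notch1 on its neighbor, the receptor is cut, and its freed inner part joins the DNA-binding protein RBPJ (also called CSL) to switch on Hes1 and Hes5. The Hes proteins are repressors that hold down proneural genes, which would otherwise drive the cell to become a neuron.

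The promoters of Hes5 and Fabp7 are shown because the genes are read out as Notch targets or radial glia markers and because these sequences hold the core letters bound by RBPJ, TGGGAA. The sequences are the 250 bases that precede each transcription start, read 5' to 3' on the gene's own strand, from RefSeq on build GRCm38.p6. Capitals mark TGGGAA or its reverse complement TTCCCA. The Hes5 promoter covers chr4:154960673-154960922 on the plus strand, and the Fabp7 promoter covers chr10:57784673-57784922 on the plus strand.
Hes5 promoter: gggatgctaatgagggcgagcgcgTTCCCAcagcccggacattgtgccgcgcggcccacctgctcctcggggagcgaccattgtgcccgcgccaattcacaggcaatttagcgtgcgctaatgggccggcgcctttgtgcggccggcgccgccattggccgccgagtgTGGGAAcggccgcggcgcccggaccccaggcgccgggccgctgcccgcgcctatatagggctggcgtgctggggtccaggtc
Fabp7 promoter: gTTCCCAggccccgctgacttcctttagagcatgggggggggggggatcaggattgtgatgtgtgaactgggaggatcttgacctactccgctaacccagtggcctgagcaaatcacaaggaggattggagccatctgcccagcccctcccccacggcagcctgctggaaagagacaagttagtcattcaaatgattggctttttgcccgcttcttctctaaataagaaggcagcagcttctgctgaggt

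In the Hes5 promoter the motif lay at positions -82 to -77, with -1 as the base before the start, and in the reverse orientation at -226 to -221. In the Fabp7 promoter it lay in the reverse orientation at -249 to -244. RefSeq promoters were matched for 9 of the 10 genes, with Hes1 missing, and of the 12 promoters of these 9 genes, 2 held the motif. On both strands and over windows of 300 bases, TGGGAA was found in 25.6% of 32851 mouse promoters, and 2 or more copies, as at Hes5, in 3.79%. The longer form GTGGGAA, which contains the shorter one, occurred in 6.38%. A match of this kind describes letters in a window and is not a measured binding site.

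The 8 libraries held between 22916434 and 30708087 counts on genes. CPM are counts-per-million of TMM-normalized library size, and 3 counts, taken as the lowest level that can be told from 0, corresponded to 0.0980 to 0.132 CPM. The label of whole brain was checked against genes of its regions, because 2 of the control libraries stood apart. The summed level of 10 hindbrain and spinal cord genes was 6.38 CPM in replicate 1 and 20.2 CPM in replicate 2 at 0 ppm, against 62.9 and 67.95 CPM in the other 0 ppm brains and 73.2 to 182 CPM at 50 ppm. Hoxb5, a homeobox gene of the caudal hindbrain and spinal cord, had 0 CPM in replicate 1 and 0.112 CPM in replicate 2, at most 3 counts, and 4.44 to 47.6 CPM in the other 6 brains. The forebrain genes, 8 transcription factors in all, summed to 549.7 and 536 CPM in these 2 libraries and to 322 to 465 CPM in the other 6. The differences of the 9 genes, of the Notch, progenitor, astrocyte and region lists and of the single genes described from the Notch, progenitor and astrocyte lists are therefore also given without 0 ppm replicates 1 and 2. The 10 hindbrain and spinal cord genes include Hoxa2, Hoxb2, Hoxb3, Hoxb4 and Hoxb5. The study reported raised Hox gene expression in newborn brains after maternal Cd exposure, by RNA-seq for Hoxb8 and by qRT-PCR for several Hoxa and Hoxb genes. Its qRT-PCR used 8 pups per dose and included the 8 brains sequenced here. The mean log2 CPM of the 10 genes was -2.20 to 2.08 in 0 ppm brains and 2.28 to 3.21 at 50 ppm. Whether these levels followed the tissue taken or the exposure was not tested. Fits with this mean as a score, or without those replicates, may therefore also remove part of a difference by dose.

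Among the 9 genes tested, none passed an adjusted p of 0.05 in edgeR's quasi-likelihood test, where 4 of 23113 genes did (0.0173%). At an unadjusted p under 0.05, Nes was lower and Hopx was higher at 50 ppm, which is 2 of 9 genes against 3.75% of all genes tested, of which 2.31% were higher and 1.44% lower. The CPM of the 0 ppm and 50 ppm brains overlapped for each of the 9 genes. Over all genes tested 2.09% did not overlap, a share at which few or none of 9 genes would be without overlap. DESeq2, limma-voom and the other alternatives also called 0 of the 9. The median log2 fold change of the 9 was 0.00331, beside a median of -0.00328 over all genes tested, with 5 estimates above 0 and 4 below. In homogenized tissue, fewer cells of a type and less RNA per cell cannot be told apart, which applies to each level reported here.

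**Figure D1:**
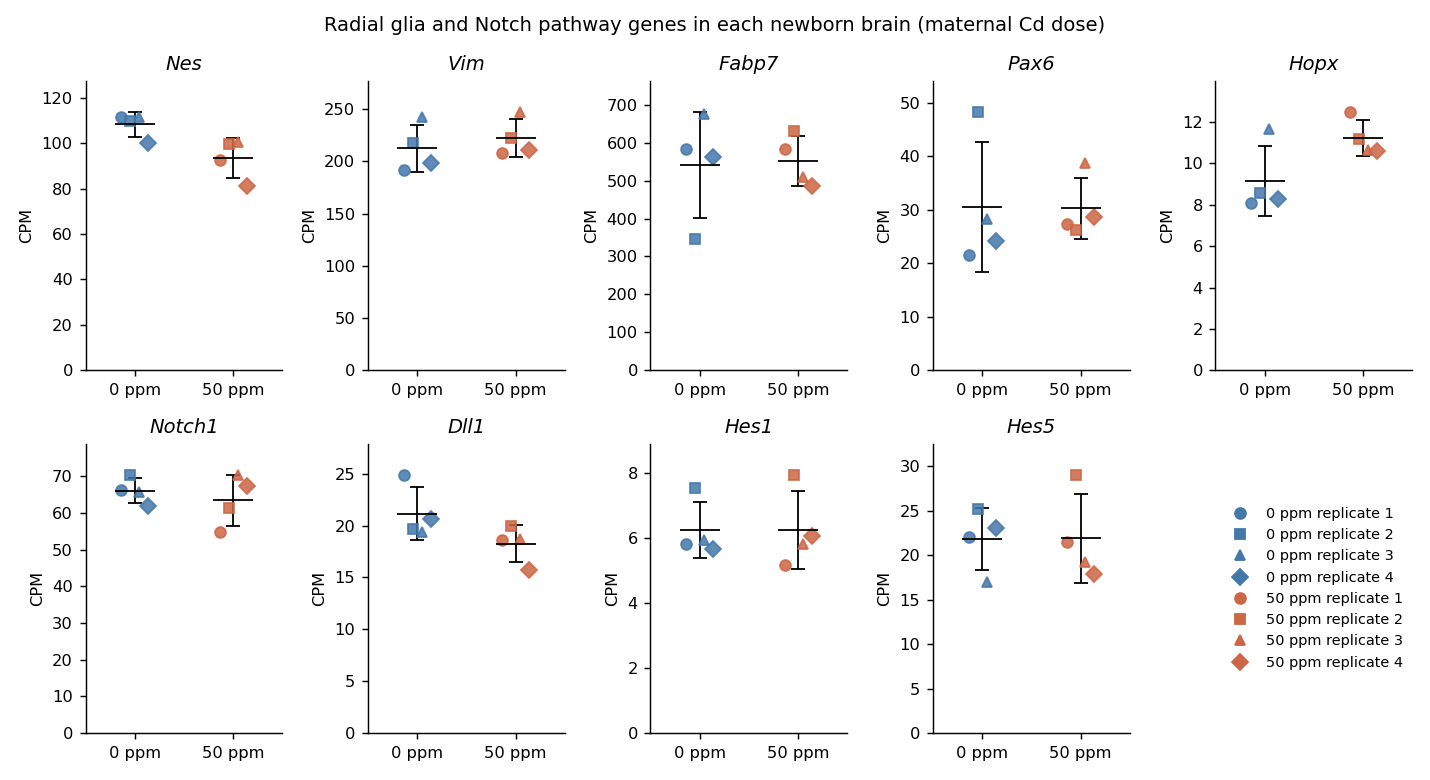
CPM of the 9 measured genes in each brain (y axis, from 0) by maternal Cd dose (x axis), with points for single brains, horizontal bars for means and error bars for the SD (n = 4 per dose). Nes sits at 100.1 to 112 CPM in 0 ppm brains and 81.4 to 101 CPM at 50 ppm, Hopx at 8.09 to 11.7 and 10.6 to 12.5 CPM, and the doses overlap in every panel.

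Expressed per kilobase of exon, so that genes can be set side by side, the radial glia markers spanned the whole range. Fabp7, which encodes the brain fatty acid binding protein of radial glia, was highest at 433 ± 112 CPM per kb (SD, n = 4) in 0 ppm brains. Vim, the intermediate filament protein vimentin, followed at 44.8 ± 4.77 CPM per kb. Nes, the intermediate filament protein nestin, stood at 16.9 ± 0.858 CPM per kb and the Notch target Hes5 at 16.0 ± 2.55 CPM per kb, and these 2 ranges overlapped. The next neighbors, Hopx at 6.04 ± 1.11, Dll1 at 5.01 ± 0.609 and Notch1 at 4.64 ± 0.241 CPM per kb, each overlapped with the one beside it. Hes1 at 3.06 ± 0.425 CPM per kb lay below all 0 ppm values of Notch1, and overlapped with Pax6 at 2.61 ± 1.04 CPM per kb. With the length of the longest transcript in place of all exons, Pax6 moved to 6.90, close to Notch1 at 6.96 and Hopx at 7.26 CPM per kb, so the order of the lower genes depended on the gene model. The 2 Hes genes, which share a role as Notch effectors, thus differed in level, with Hes5 above Hes1 in every 0 ppm brain.

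**Figure D2:**
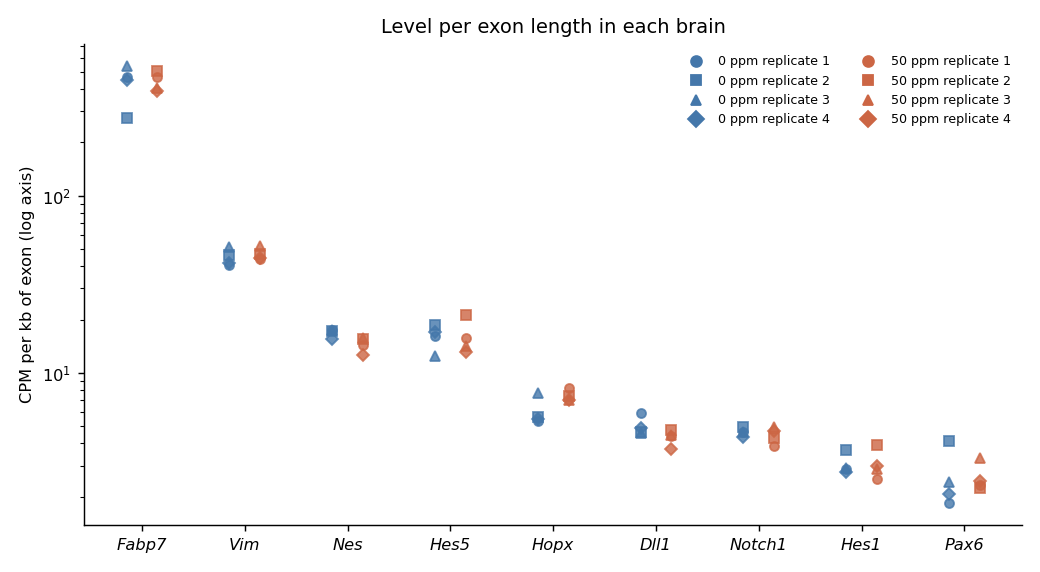
CPM per kb of exon (y axis, log scale) for each of the 9 measured genes (x axis, ordered by the 0 ppm mean), with one point per brain and color for dose. At 0 ppm the means run from 433 for Fabp7 to 2.61 for Pax6, and Fabp7 and Vim stand clear of the other genes at both doses.

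Nes showed the lowest unadjusted p of the 9 genes. It lies at chr3:87971078-87980451 on the plus strand (GRCm38) and encodes the filament protein by which neural stem cells are commonly recognized. Its level was 111, 110.0, 112 and 100.1 CPM in 0 ppm replicates 1 to 4, and 92.6, 99.7, 101 and 81.4 CPM in 50 ppm replicates 1 to 4. Controls 1 to 3 lay within 2 CPM of each other and above all 4 exposed brains, while the fourth control, at 100.1 CPM, fell just under the highest exposed brain. The log2 fold change was -0.21 ± 0.08 (SE), with a 95% interval from -0.37 to -0.05. Its p was 0.0140 in edgeR's quasi-likelihood test (adjusted p = 0.999) and 0.0571 when the dose labels were permuted exactly and two-sided, where 0.0286 is the smallest p that 4 against 4 brains can give. The estimate lay between -0.25 and -0.15 in all 16 alternatives, with an unadjusted p under 0.05 in 13 of them and no adjusted p below 0.874. Without 0 ppm replicates 1 and 2 it was -0.18, and with the hindbrain and spinal cord score of each brain (the mean log2 CPM of those genes) in the model it was -0.16, and the unadjusted p of edgeR was above 0.05 in both.

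Hopx differed in the other direction. It encodes a small homeodomain protein that does not bind DNA and that marks a class of radial glia as well as adult neural stem cells and some astrocytes. At 0 ppm it stood at 8.09, 8.59, 11.7 and 8.29 CPM, and at 50 ppm at 12.5, 11.2, 10.7 and 10.6 CPM. The exposed brains all lay above 3 of the controls, and the third control replicate lay among them. The difference on the log2 scale was 0.29 ± 0.13 (SE), with a 95% interval from 0.01 to 0.57 (edgeR, p = 0.0424, adjusted p = 0.999; exact permutation p = 0.114). It was 0.16 without 0 ppm replicates 1 and 2, 0.12 with the hindbrain and spinal cord score in the model and 0.43 without 0 ppm replicate 3 (edgeR, adjusted p = 0.530). The unadjusted p was under 0.05 in 9 of the 16 alternatives. The gene lies at chr5:77086988-77115121 on the minus strand, and 27.2% of its exon length is overlapped by Hopxos on the opposite strand, so its counts are uncertain where the counting did not use strand, a setting not given in the sources used here.

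Astrocyte markers were examined beside Hopx. All 12 of the markers examined had a positive log2 fold change, with a median of 0.35. At an unadjusted p under 0.05, 8 of the 12 were higher, against 2.31% of all genes tested, and 0 were called by edgeR after adjustment. The summed level of the 12 was 1217 to 1394 CPM in 0 ppm brains and 1402 to 1695 CPM at 50 ppm, and none of the defining markers was at 0. Aqp4, the water channel of astrocyte endfeet, was at 82.2, 57.8, 117 and 85.9 CPM in 0 ppm brains and 146, 147, 112 and 156 CPM at 50 ppm, with a log2 fold change of 0.71 (edgeR, adjusted p = 0.271) that became 0.46 without 0 ppm replicates 1 and 2 (edgeR, adjusted p = 0.357). Gja1, the astrocyte gap junction protein connexin 43, was at 94.1 to 138 CPM in 0 ppm brains and 144 to 198 CPM at 50 ppm, with a log2 fold change of 0.44 (edgeR, adjusted p = 0.426), and 0.36 without those replicates. Without 0 ppm replicates 1 and 2 the median of the list was 0.18, with 11 of 12 positive. The part of these cells in the value of Hopx was not tested.

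**Figure D3:**
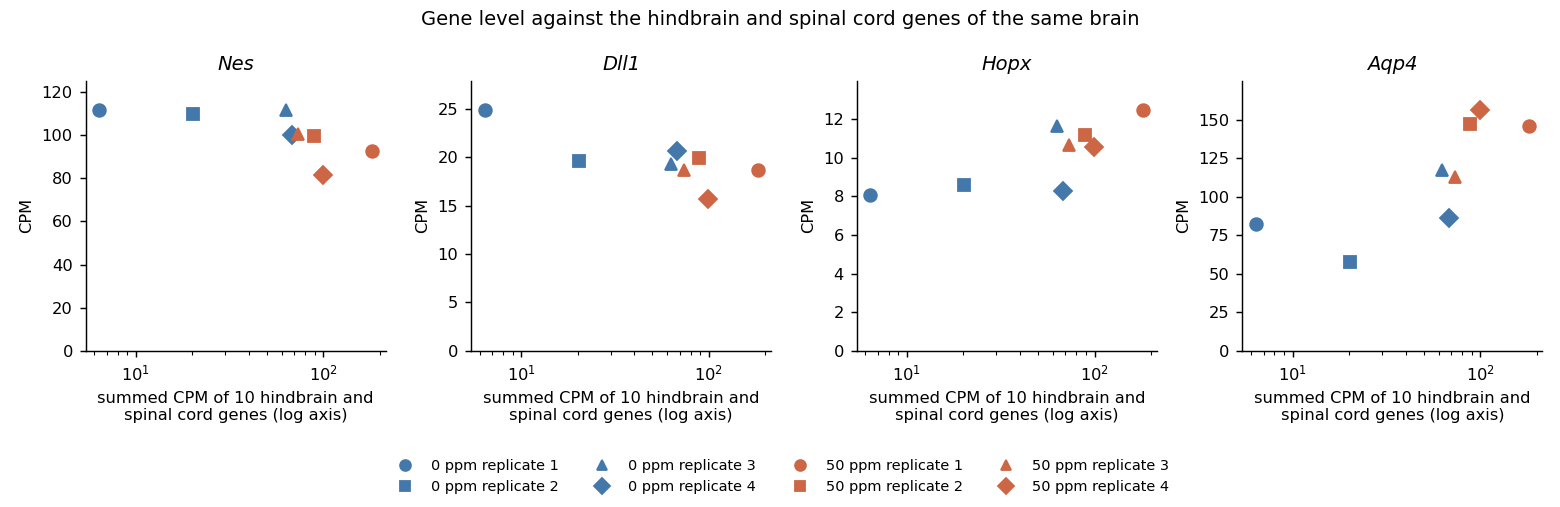
CPM of Nes, Dll1, Hopx and the astrocyte marker Aqp4 (y axes, from 0) against the summed CPM of 10 hindbrain and spinal cord genes in the same brain (x axis, log scale), one point per brain. The 0 ppm replicates 1 and 2 stand alone on the left, at 6.38 and 20.2 summed CPM, with the lowest Aqp4 levels (82.2 and 57.8 CPM), and replicate 1 also has the lowest Hopx (8.09 CPM) and the highest Dll1 level (24.9 CPM).

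Pax6 and Fabp7 were the genes that varied most between control brains. Pax6 encodes a paired-box transcription factor of cortical radial glia that is also made by cerebellar granule cells, and lies at chr2:105668900-105697364 on the plus strand. It was at 21.5, 48.3, 28.3 and 24.1 CPM at 0 ppm, a coefficient of variation of 39.7%, and at 27.3, 26.2, 38.8 and 28.7 CPM at 50 ppm. The second control replicate was the highest of all 8 brains and the first the lowest. The difference on the log2 scale was -0.01 ± 0.19 (SE), with a 95% interval from -0.41 to 0.39 (exact permutation p = 0.886). The sign of this estimate changed in 7 of the 16 alternatives. Without the second control the value was 0.29, with an unadjusted p under 0.05 in edgeR but no call after adjustment, and without both of the control libraries that stood apart it was 0.20.

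Fabp7, at chr10:57784881-57788450 on the plus strand, was at 583, 345, 675 and 562 CPM in 0 ppm brains and at 584, 630.0, 509 and 486 CPM at 50 ppm. Here the second control was the lowest of the 8 brains, and the coefficient of variation was 25.8% at 0 ppm and 12.1% at 50 ppm. Its log2 fold change was 0.03 ± 0.14 (SE), with a 95% interval from -0.26 to 0.32 (exact permutation p = 0.857), and became -0.14 without 0 ppm replicate 2 and -0.17 without replicates 1 and 2. The same control brain also had the highest summed level of the cerebellar granule cell markers, at 419 CPM, where the first control had the lowest, at 223 CPM, and the other 6 brains ranged from 320.2 to 367 CPM. Whether the share of cerebellum in the tissue had a part in the values of Pax6 and Fabp7 was not tested.

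Vim varied less between brains than Fabp7, with a coefficient of variation of 10.6% at 0 ppm and 7.97% at 50 ppm. This filament protein is made by radial glia, astrocytes, endothelium and meninges, and its gene lies at chr2:13573927-13582826 on the plus strand. It was at 192, 218, 242 and 199 CPM in 0 ppm brains and 208, 223, 247 and 211 CPM at 50 ppm, and the ranges overlapped for most of their length. Its log2 fold change was 0.06 ± 0.08 (SE), with a 95% interval from -0.10 to 0.23 (exact permutation p = 0.514), and 0.00851 without 0 ppm replicates 1 and 2.

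Sox2, the transcription factor that defines neural stem cells, was listed at 0 counts in all 8 libraries. The gene lies at chr3:34650405-34652461 on the plus strand, inside the long noncoding gene Sox2ot at chr3:34104270-34682619 on the same strand, which held 874 to 1243 counts per library, or 32.5 to 43.6 CPM. Genes that define other cells of any newborn brain were also listed at 0 in all 8 libraries, among them Tubb3, the neuronal tubulin, and Neurod1 of differentiating neurons, as was the radial glia gene Sox1. The 0 of Sox2 was therefore not read as a level, and no fold change is given. The other 9 neuron markers summed to 6286 to 7146 CPM in 0 ppm brains and 6473 to 6971 CPM at 50 ppm.

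Among the Notch genes, the receptor and its targets differed by less than the spread between brains. Notch1, at chr2:26457903-26516663 on the minus strand, was at 66.2, 70.3, 65.7 and 62.0 CPM in 0 ppm brains and 54.8, 61.3, 70.4 and 67.2 CPM at 50 ppm. The log2 fold change was -0.06 ± 0.08 (SE), with a 95% interval from -0.23 to 0.12 (exact permutation p = 0.600), and -0.01 without 0 ppm replicates 1 and 2. The highest and the lowest of the 8 brains were both exposed, and 9.76% of the exon length is overlapped on the opposite strand.

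Dll1, the ligand that differentiating cells present to their neighbors, lies at chr17:15367354-15376872 on the minus strand. It was at 24.9, 19.7, 19.4 and 20.6 CPM in 0 ppm brains and at 18.7, 19.98, 18.7 and 15.7 CPM at 50 ppm. The first control was the highest and the fourth exposed brain the lowest, and the second exposed brain lay among the controls. The log2 fold change was -0.21 ± 0.11 (SE), with a 95% interval from -0.44 to 0.02 (edgeR, p = 0.0690, adjusted p = 0.999; exact permutation p = 0.0857). It was -0.12 without 0 ppm replicate 1, -0.13 without replicates 1 and 2, and -0.07 with the hindbrain and spinal cord score in the model. A930024N18Rik overlaps 20.5% of its exon length on the opposite strand.

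Hes5 is the target most closely tied to Notch activity in neural progenitors, lies at chr4:154960923-154962371 on the plus strand, and has the promoter with a pair of RBPJ motifs printed above. It was at 22.02, 25.2, 17.0 and 23.04 CPM in 0 ppm brains and 21.5, 29.1, 19.2 and 17.9 CPM at 50 ppm. The second exposed brain was the highest and the third control the lowest, and the log2 fold change was 0.01 ± 0.14 (SE), with a 95% interval from -0.29 to 0.31 (edgeR, adjusted p = 0.999). Without 0 ppm replicates 1 and 2 it was 0.13. Gm20421 overlaps 31.8% of its exon length on the opposite strand.

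Hes1, the other bHLH repressor downstream of Notch, lies at chr16:30064384-30067796 on the plus strand and was the least counted of the 9 genes, with 137 to 226 counts per library. It was at 5.80, 7.51, 5.94 and 5.65 CPM in 0 ppm brains and 5.16, 7.93, 5.82 and 6.04 CPM at 50 ppm. One brain in each dose, replicate 2 in both, stood above the rest, though replicate numbers were given in accession order and pair nothing. On the log2 scale the difference was 0.00 ± 0.16 (SE), with a 95% interval from -0.33 to 0.34 (edgeR, adjusted p = 0.999). It was 0.10 when 0 ppm replicates 1 and 2 were left out. These intervals leave room for changes in either direction of about the size printed at their ends.

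**Figure D4:**
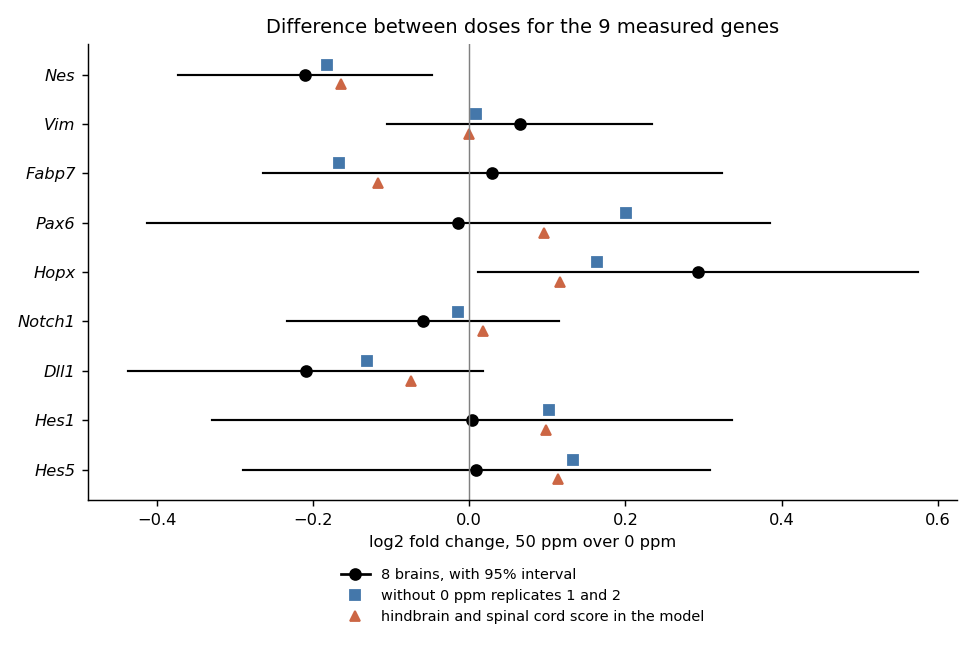
Log2 fold change of 50 ppm over 0 ppm (x axis) for the 9 measured genes (y axis), with black points and lines for the 8 brains and the 95% interval, blue squares without 0 ppm replicates 1 and 2, and red triangles with the hindbrain and spinal cord score in the model. Only the intervals of Nes (-0.37 to -0.05) and Hopx (0.01 to 0.57) leave out 0, and both estimates are nearer to 0 in the other fits.

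The 46 other Notch pathway genes examined were all tested, and 0 were called by edgeR after adjustment. Their median log2 fold change was -0.02, with 18 above 0 and 28 below, and 44 of the 46 lay within 0.3 of 0. At an unadjusted p under 0.05 there was 1 gene higher and 1 lower, where 2.31% of all genes tested were higher and 1.44% lower. The receptors and ligands Notch2, Notch3, Notch4, Dll3, Dll4, Jag1 and Jag2 gave 0 genes at that level, with a median of -0.03, and -0.07 without 0 ppm replicates 1 and 2. The most abundant of these, the receptor Notch3, which vessel wall cells also make, was at 51.8 to 60.7 CPM in 0 ppm brains and 56.6 to 64.6 CPM at 50 ppm. At 0 ppm the levels per kb of exon were 6.87 CPM for Notch3 and 6.72 CPM for Jag2, above the 4.64 CPM of Notch1, and 4.79 CPM for Notch2. With the longest transcript as gene length, Jag2 was at 9.17, Notch1 at 6.96 and Notch3 at 6.93 CPM per kb. The order of Notch3 and Notch1 thus depended on the gene model.

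The 20 genes that process ligands and receptors, including the gamma-secretase subunit Ncstn, the protease Adam10 and the ubiquitin ligase Mib1, had a median log2 fold change of -0.01, with 8 above 0 and 12 below, and the same median and split without 0 ppm replicates 1 and 2. Numb encodes a Notch inhibitor parted unequally at division. It was the only one of the 20 whose doses did not overlap, where 2.09% of all genes tested did not. It was at 15.6 to 18.1 CPM in 0 ppm brains and 18.2 to 19.9 CPM at 50 ppm. Its log2 fold change was 0.14 (edgeR, adjusted p = 0.999), and 0.18 without those replicates. It is singled out after its values were seen. Dner, a neuronal ligand-like protein, was the most abundant at 374 to 520.0 CPM in 0 ppm brains and 430.4 to 506 CPM at 50 ppm. In the nuclear complex around RBPJ, the median of 9 genes was -0.06, with 2 above 0, but 0.00415 without 0 ppm replicates 1 and 2, with 5 above 0. The coactivator Maml2 was at 22.9, 27.3, 25.7 and 24.6 CPM in 0 ppm brains and 26.0, 29.8, 29.9 and 29.4 CPM at 50 ppm. Its log2 fold change was 0.20 ± 0.09 (SE; edgeR, adjusted p = 0.999), and 0.19 without those replicates. Spen, a corepressor of RBPJ, was the most abundant of this group, at 129.6 to 165 CPM and 118 to 165 CPM.

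In the list of 10 other targets, Hes6 was the only gene whose doses did not overlap, where 2.09% of all genes tested did not. This Hes family member opposes Hes1 and is made by cells that are becoming neurons, so its level is not read here as Notch output. It was at 49.3, 55.1, 54.8 and 51.1 CPM in 0 ppm brains and 44.6, 48.3, 48.6 and 39.6 CPM at 50 ppm. All 4 exposed brains lay below all 4 controls, the closest being 48.6 and 49.3 CPM. Its log2 fold change was -0.21 ± 0.08 (SE; edgeR, adjusted p = 0.999; exact permutation p = 0.0286), and it was -0.23 without 0 ppm replicates 1 and 2 and -0.24 with the hindbrain and spinal cord score in the model. Like Numb, Hes6 is singled out after its values were seen, and any 4 against 4 brains without overlap give this permutation p. The most abundant gene of the group, Id4, an inhibitor of bHLH factors, was at 108, 123, 152 and 147 CPM in 0 ppm brains and 109, 128, 112 and 131 CPM at 50 ppm. The controls that stood apart were the lower ones, and the log2 fold change of -0.15 (edgeR, adjusted p = 0.999) became -0.32 without them, the lowest unadjusted p of the target genes in that fit but no call (edgeR, adjusted p = 0.412). The median of the 10 targets was 0.00337 with all 8 brains and 0.06 without these controls. Hes3 did not exceed 0.239 CPM in any brain, close to the lowest level that can be told from 0, and no fold change is given for it.

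Other genes of radial glia gave no common direction. Of 22 examined, 21 were tested, with Sox1 at 0, and 11 were above 0 and 10 below, with a median log2 fold change of 0.01 (-0.00721 without 0 ppm replicates 1 and 2) and 0 called by edgeR after adjustment. Before adjustment, 2 genes were higher and 2 lower at p under 0.05, where 2.31% of all genes tested were higher and 1.44% lower. Ednrb, an endothelin receptor of radial glia and astrocytes, was at 168 to 185 CPM in 0 ppm brains and 193 to 245 CPM at 50 ppm without overlap, with a log2 fold change of 0.29 ± 0.08 (SE; edgeR, adjusted p = 0.703) and 0.25 without 0 ppm replicates 1 and 2. Lifr, the receptor for leukemia inhibitory factor, had a value of 0.26 (edgeR, adjusted p = 0.999), and 0.21 without them. On the lower side, Tfap2c, a transcription factor of cortical progenitors, was at 2.61 to 3.25 CPM in 0 ppm brains and 1.75 to 2.25 CPM at 50 ppm, again without overlap, with a value of -0.53 ± 0.18 (SE; edgeR, adjusted p = 0.999), and -0.57 without those controls. Emx2, which patterns the cortex, had a value of -0.29 (edgeR, adjusted p = 0.999), and -0.34 without them. Ednrb and Tfap2c were the only genes of the 21 without overlap, where 2.09% of all genes tested did not overlap. Both are singled out after their values were seen. Ptprz1, a receptor phosphatase and the most abundant of the list, was at 659 to 822 CPM in 0 ppm brains and 708 to 879 CPM at 50 ppm.

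The proneural and intermediate progenitor genes, some of which Hes proteins are known to repress, were mostly below 0. Of 12 such genes, 11 were tested, with Neurod1 at 0, and 10 were below 0 and 1 above, with a median log2 fold change of -0.26 and 0 called by edgeR after adjustment. At an unadjusted p under 0.05 in edgeR, 3 of the 11 were lower and 0 higher, where 1.44% of all genes tested were lower. Without 0 ppm replicates 1 and 2, 4 of the 11 were lower at that level, where 486 of 23841 genes were. The median was also -0.26 in that fit. With the hindbrain and spinal cord score in the model it was -0.32, with 11 of 11 below 0 and 0 at an unadjusted p under 0.05. Neurog1, counted among the 10, was at 0 to 0.194 CPM, around the lowest level that can be told from 0, and gets no fold change of its own. Neurod4, a proneural factor, was at 4.30, 4.46, 2.22 and 2.56 CPM in 0 ppm brains and 1.44, 2.14, 1.75 and 0.882 CPM at 50 ppm. It was the only one of the 11 whose doses did not overlap, where 2.09% of all genes tested did not. It is singled out after its values were seen. The 2 controls that stood apart were the highest, and the log2 fold change of -1.11 ± 0.27 (SE; edgeR, adjusted p = 0.426) became -0.60 without them.

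Eomes, the factor of cortical intermediate progenitors also known as Tbr2, was at 17.2, 35.8, 16.7 and 17.5 CPM in 0 ppm brains and 11.5, 15.03, 17.4 and 13.5 CPM at 50 ppm. One control, replicate 2, stood far above the rest, and the log2 fold change of -0.60 ± 0.20 (SE; edgeR, adjusted p = 0.999) became -0.26 without 0 ppm replicates 1 and 2. Neurog2, which turns cortical radial glia toward neurons, had a value of -0.65 ± 0.28 (SE; edgeR, adjusted p = 0.999) and -0.67 without them, with one exposed brain at 0.882 CPM and the others at 2.88 to 4.57 CPM against 4.20 to 4.84 CPM at 0 ppm. Elavl4, an RNA-binding protein of new neurons and the most abundant of the list, was at 176 to 204 CPM and 166 to 199 CPM. The forebrain genes, which mark the tissue where Eomes and Neurog2 are mostly made, also had a median below 0, at -0.37. Of these 8 genes, 7 were below 0. At an unadjusted p under 0.05, 4 of them were lower, against 1.44% of all genes tested. Their median was -0.25 without 0 ppm replicates 1 and 2. The hindbrain and spinal cord genes had a median of 1.46, with 10 of 10 above 0, and 0.70 without them. The part of tissue composition in the proneural values was not tested.

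Genes of dividing cells, which in the newborn brain include radial glia and intermediate progenitors, had a median log2 fold change of -0.14, with 12 of 16 below 0 and 0 called by edgeR after adjustment. Ccnb2, a mitotic cyclin, was at 7.07 to 7.64 CPM in 0 ppm brains and 4.14 to 7.74 CPM at 50 ppm, with a value of -0.44 ± 0.17 (SE; edgeR, adjusted p = 0.999), and -0.47 without 0 ppm replicates 1 and 2. Top2a, the most abundant, was at 58.6 to 81.3 CPM and 53.1 to 72.7 CPM. Without 0 ppm replicates 1 and 2 the median of the list was 0.02 and 9 of 16 were above 0.

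**Figure D5:**
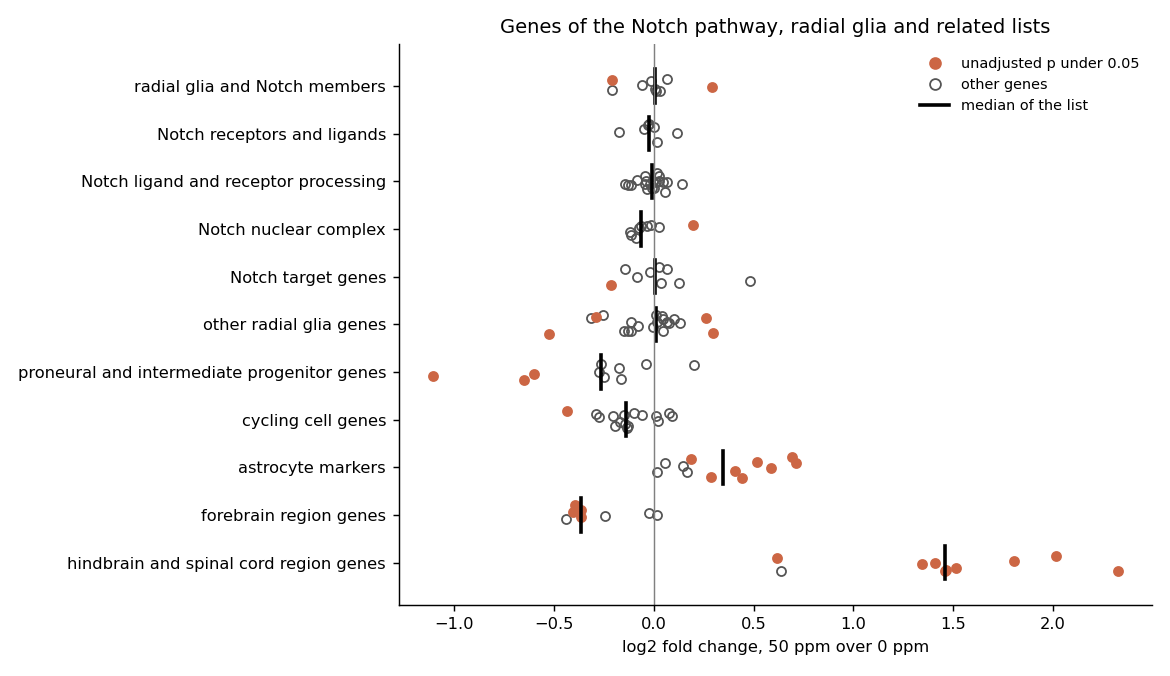
Log2 fold change of 50 ppm over 0 ppm (x axis) for each gene of 11 lists (y axis), leaving out genes whose mean was under 0.3 CPM, with filled points for an unadjusted p under 0.05 and vertical bars for the median of each list. The Notch lists lie around 0 (medians -0.06 to 0.00), the proneural list at -0.26, the astrocyte list at 0.35 and the hindbrain and spinal cord list at 1.46.

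Across the 8 brains the 9 genes did not vary as one set. Over their 36 pairs, Pearson's r of log2 CPM ran from -0.79 to 0.77, with 2 pairs at an exact permutation p under 0.05 and 0 after Benjamini-Hochberg adjustment over the pairs, where the lowest adjusted p was 0.738. Pax6 and Fabp7 gave r = -0.79 (exact permutation p = 0.0253) and Spearman's rho = -0.55 (exact permutation p = 0.171), but r was -0.03 without the 2 brains farthest from the median of Pax6, so this relation rested on those brains. Nes and Dll1 gave r = 0.77 (exact permutation p = 0.0410) and rho = 0.52 (exact permutation p = 0.197), with r = 0.68 without the 2 brains farthest from the median of Nes. After the dose means were removed, r of Nes and Dll1 was 0.59 (exact permutation p = 0.122). That of Pax6 and Fabp7 was then -0.80 (exact permutation p = 0.0215), and 0 pairs passed after adjustment. Notch1 and its ligand Dll1 gave r = -0.02 (exact permutation p = 0.957) and rho = -0.14 (exact permutation p = 0.752), with r = -0.27 without the 2 brains farthest from the median of Notch1. Hes1 and Hes5 gave r = 0.65 (exact permutation p = 0.0851) and rho = 0.26 (exact permutation p = 0.536), but r was -0.60 without the 2 brains farthest from the median of Hes1, so its sign rested on those brains.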

How the data were processed

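The deposited values are raw read counts for each gene, not normalized. The authors had trimmed initial bases, aligned reads with STAR to GRCm38 (Ensembl) and counted with HTSeq, whose versions and strand setting are not given in the sources used here. The library kit was directional. Libraries were numbered in accession order, which pairs nothing. Identifiers were matched to symbols for 49326 of 49585, and 22508 were at 0 in all 8 libraries. Positions, exon lengths and overlaps came from GENCODE M21 (GRCm38). The counts of the CAST/EiJ alignment were not used here, because their identifiers were not paired with symbols.

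Genes at 0 in more than 5 of 8 libraries were left out. The remaining 23113 were tested with edgeR 4.0.16 in R 4.3.3 (TMM, glmQLFit, glmQLFTest, treatment as the only term; TMM factors 0.986 to 1.02), with Benjamini-Hochberg adjustment over all of them and a threshold of 0.05. The standard error was the absolute log2 fold change divided by the square root of F. Log2 CPM used a prior count of 2. Permutation tests were exact and two-sided over brains, with edgeR p-values taken from the fit across all genes, and pair tests were adjusted over 36 pairs, since Sox2 gave none. Intervals of edgeR cover the spread between these brains, and the floor of 3 counts per library covers counting error only. Scripts were tested on simulated data.

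Alternatives were DESeq2 1.42.0, its size factors in edgeR, no filter, a filter of at least 10 counts in 4 libraries, a robust fit, limma 3.58.1 (voom with quality weights), the mean log2 CPM of the hindbrain and spinal cord genes as a covariate, each library left out in turn, and 0 ppm replicates 1 and 2 left out together, which was chosen after seeing the data. All 10 genes given are named. From the other lists, the gene of highest mean CPM is named with up to 4 (up to 2 for other cell types and regions) of lowest unadjusted p under 0.05; some single genes are not reported here. The genes and lists were chosen with earlier results of these data known, so no list was tested as a set.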

Additional observations from a re-analysis of the deposited data

Results flagged for a closer look

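In 3 of 54 groups of 4 brains, for the genes given and related ones, 1 brain lay far from the other 3 of its dose by Dixon's gap test, and chance gives about 1 such group in 20. For Nes at 0 ppm, replicate 4 stood at 100.1 CPM and the others at 110.0 to 112 CPM. For Hopx at 0 ppm, replicate 3 stood at 11.7 CPM and the others at 8.09 to 8.59 CPM. For Hes1 at 0 ppm, replicate 2 stood at 7.51 CPM and the others at 5.65 to 5.94 CPM.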

How the results depend on the processing

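No paired analysis was possible because the labels give no replicate numbers. The alignment to the CAST/EiJ genome was not run as an alternative. None of the 9 genes was called in any of the 16 alternatives, and the signs of Nes, Hopx and Dll1 were kept in all 16. Estimates near 0 changed sign, with values as log2 fold changes. Under limma-voom Pax6 was 0.15 and Hes5 -0.00808. With the hindbrain and spinal cord score in the model Pax6 was 0.10, Vim -0.000766, Fabp7 -0.12 and Notch1 0.0178, and the median of the cycling genes was 0.0696. Without 0 ppm replicates 1 and 2 Pax6 was 0.20 and Fabp7 -0.17. Leaving out 1 library at a time gave -0.15 to 0.29 for Pax6, -0.14 to 0.15 for Fabp7, -0.14 to 0.11 for Hes1, -0.16 to 0.0933 for Hes5 and -0.11 to 0.00806 for Notch1. The cause was not tested.

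The 4 genes called over all genes became 18 under DESeq2, 52 with no filter, 2 with at least 10 counts in 4 libraries, 1 under limma-voom, 2 with the score in the model, 7 without 0 ppm replicates 1 and 2, and 2 to 20 with 1 library left out, 20 without 0 ppm replicate 3 and 8 without 50 ppm replicate 3. With no filter, 1 proneural gene, Neurod4, passed (edgeR, adjusted p = 0.0290). With the longest transcript as gene length, levels at 0 ppm were 72.7 CPM per kb for Vim, 615 for Fabp7, 4.24 for Hes1 and 5.91 for Dll1. At 4 brains per dose, the 95% intervals of the 9 genes show which differences the data could not resolve.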

Other observations

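Beyond astrocytes, the lists of other cell types held 0 genes called by edgeR after adjustment. Among oligodendrocyte lineage genes, 6 of 9 were above 0 with a median log2 fold change of 0.09, and Pdgfra of the precursors was at 113 to 130.2 CPM at 0 ppm and 124 to 141 CPM at 50 ppm. Ependymal genes, made by cells that arise from radial glia, had a median of 0.02 over 7 genes tested, with Mia at 0, and their most abundant, the cilia regulator Foxj1, was at 17.7 to 19.6 CPM and 16.9 to 24.0 CPM. Neuron markers had a median of 0.01, and Dcx, of migrating neurons, a value of -0.08.

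Microglia markers were above 0 in 7 of 8, with a median of 0.15. P2ry12 had a value of 0.43 (edgeR, adjusted p = 0.999) and Csf1r 0.23 (edgeR, adjusted p = 0.999). In the meninges list 8 of 9 were above 0, with a median of 0.13. Slc6a13 at 25.4 to 32.3 CPM and 33.6 to 40.4 CPM and Igf2 at 337 to 382 CPM and 389 to 423 CPM did not overlap. These were the only 2 of the 9 without overlap, where 2.09% of all genes tested did not overlap. Both are singled out after their values were seen. Endothelial genes had a median of 0.09, with Cldn5 at 0.08, and blood genes a median of -0.11, with Hbb-bs at -0.14. Of the 6 cerebellar granule cell markers 5 were above 0, with a median of 0.17, Cbln1 at 0.25 (edgeR, adjusted p = 0.999) and Zic1 at 0.05, and Gabra6 was near the floor in every brain. Among region genes, Dlx5 had a value of -0.40 in the forebrain list, and Hoxb5 2.33, Slc6a2 1.46 and Slc6a5 1.41 in the hindbrain and spinal cord list, none with an adjusted p under 0.05 in edgeR.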
